A study of Mus musculus with 2 samples.

Results

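Krt15 Sox9 cells of the developing hair follicle were described in 2 single-cell RNA sequencing libraries from the back skin of newborn mice. They numbered 1668 of the 16453 droplets that passed the filters, 894 of 8661 in the library labelled WT and 774 of 7792 in the library labelled PADI4 cKO. The cells were selected on their own measured values: at least 15 UMIs of Krt15 per 10000, at least 1 UMI of Sox9, fewer than 3 UMIs of Lmo3, Adamts19, and Pcdh20 together, fewer than 4 UMIs of Pparg, Aldh3a1, and Acsbg1 together, and fewer than 50 UMIs of Krt1 and Krt10 together per 10000. A UMI (unique molecular identifier) marks 1 captured mRNA molecule. Everything that sets these cells against other droplets is therefore a description of a selected group and has no test.

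The outer root sheath is the outermost epithelial layer of the hair follicle, continuous with the basal layer of the epidermis and resting on the same basement membrane. Its cells surround the inner root sheath and the hair shaft, and its upper part gives rise to the bulge, where the hair follicle stem cells of the adult reside. SOX9 and KRT15 are widely used markers of this layer and of the bulge, TBX1 and NFATC1 are transcription factors of bulge stem cells, and in growing follicles the layer extends toward a highly proliferative bulb.

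Mice carried K14-Cre, which is active in basal keratinocytes and their progeny, and a tdTomato reporter, and the PADI4 cKO came from a cross of this line to Padi4 fl/fl. The protocol text names K14-Cre Padi4 fl/fl for both samples, so whether the PADI4 WT mice carried a floxed allele is not clear from the labels. Skin was taken at postnatal day 1, the epidermis was removed with dispase, and tdTomato-positive, DAPI-negative cells of the dermal fraction were sorted, so that follicle epithelium is enriched over interfollicular epidermis. Each genotype is 1 library, both are labelled batch 1, and the number and sex of the animals are not given in the sources used here. Animals cannot be tested against each other, and library, animal, and genotype cannot be told apart. Where values are given in pairs, the PADI4 WT library comes first and the library labelled PADI4 cKO second. Intervals are at 95% and cover counting error only.

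The Krt15 Sox9 cells made up 10.3% (interval 9.69% to 11.0%) and 9.93% (9.28% to 10.6%) of the filtered droplets. Their median depth was 11142 and 11492.5 UMIs, lower than the 14530 and 16397 UMIs of the other droplets, so shares of cells with a UMI are given after every cell was thinned to 2000 UMIs. The libraries were close in total size, at 143938990 and 143945294 UMIs. They shared 17 droplet barcodes, and 1 cell of the group carried such a barcode. Free RNA was low in the group, since collagen mRNA, a product of fibroblasts, stood at no more than 2.30% and 2.41% of its level in empty droplets.

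Sex-linked UMIs set the libraries apart. Of the Krt15 Sox9 cells labelled PADI4 WT, 226 had UMIs of Xist, the RNA of the inactive X chromosome, and none of the Y-linked genes Uty, Eif2s3y, Kdm5d, and Ddx3y, and 577 cells had the reverse. Of those labelled PADI4 cKO, 758 had only Xist and 0 only Y-linked UMIs. The group took a similar share of each kind of cell, with 10.1% of the PADI4 WT droplets with Xist, 10.7% of those with Y-linked UMIs, and 9.90% of the Xist droplets of the other library. Comparisons between the libraries are therefore also given for Xist cells alone where a result turns on them. Cells with Xist and cells with Y-linked UMIs would come from different animals, so sex and animal cannot be told apart in that split.

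Padi4, the gene named in the genotype, had 2 UMIs in the Krt15 Sox9 cells of each library, in 2 cells each, 0.224% (0.0271% to 0.806%) and 0.258% (0.0313% to 0.930%) of the cells. At this level Padi4 does not check the label. Padi3 had 57 and 49 UMIs in the group, Padi1 4 and 7, and Padi2 0 and 0.

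Krt15 (ENSMUSG00000054146, mm10 chr11:100131758-100135928, minus strand) is a basal type I keratin. Among the members it ranged from 15.0 to 136 UMIs per 10000 with a median of 25.5 in the PADI4 WT library, and from 15.0 to 121 with a median of 25.9 in the other. Cells just inside the limit, from 15 to 17 per 10000, numbered 115 and 86, and cells just outside it, from 13 to 15 per 10000, numbered 108 and 106. The group thus has no gap at its Krt15 edge.

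Sox9 (ENSMUSG00000000567, chr11:112782224-112787760, plus strand) is a transcription factor needed for the outer root sheath. Members had a median of 5 and 6 UMIs and at most 41 in both libraries, and 156 and 79 of them had exactly 1. At the limit on Lmo3, Adamts19, and Pcdh20, 103 and 119 members had 2 UMIs, whereas 50 and 77 cells that met the limits on Krt15 and Sox9 were left out at 3. At the limit on Pparg, Aldh3a1, and Acsbg1, which mark sebaceous precursors, 46 and 34 members had 3 UMIs and 25 and 17 cells were left out at 4.

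Tbx1 (ENSMUSG00000009097, chr16:18580979-18590671, minus strand) was not used to select the cells. Its level was 157 and 174 CPM (UMIs summed over the cells and scaled to a common total) in the Krt15 Sox9 cells and 90.7 and 85.1 CPM in all other droplets, log2 ratios of 0.79 and 1.03. Nfatc1 (ENSMUSG00000033016, chr18:80606205-80713071, minus strand), likewise not used, stood at 174 and 231 CPM against 82.2 and 88.2 CPM, log2 ratios of 1.08 and 1.39. Both markers were thus higher in the group than in the other droplets of the same library, and neither marked all of its cells. At 2000 UMIs per cell, 25.3% and 29.2% of the members had a UMI of Tbx1, against 15.1% and 15.0% of the other droplets, and 24.6% and 35.1% had a UMI of Nfatc1, against 14.0% and 15.6%.

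Tbx1 was more frequent in the neighboring cells that met the Krt15 and Sox9 limits but had at least 3 UMIs of Lmo3, Adamts19, and Pcdh20, at 47.1% and 42.5%, and rare in those with at least 4 UMIs of Pparg, Aldh3a1, and Acsbg1, at 5.36% and 3.74%. Nfatc1 followed another order, with 36.3% and 39.2% in the former cells and 53.6% and 57.8% in the latter. The name is therefore used here for the rule, Krt15 Sox9 cells, and not for every subcluster within it.

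**Figure D1:**
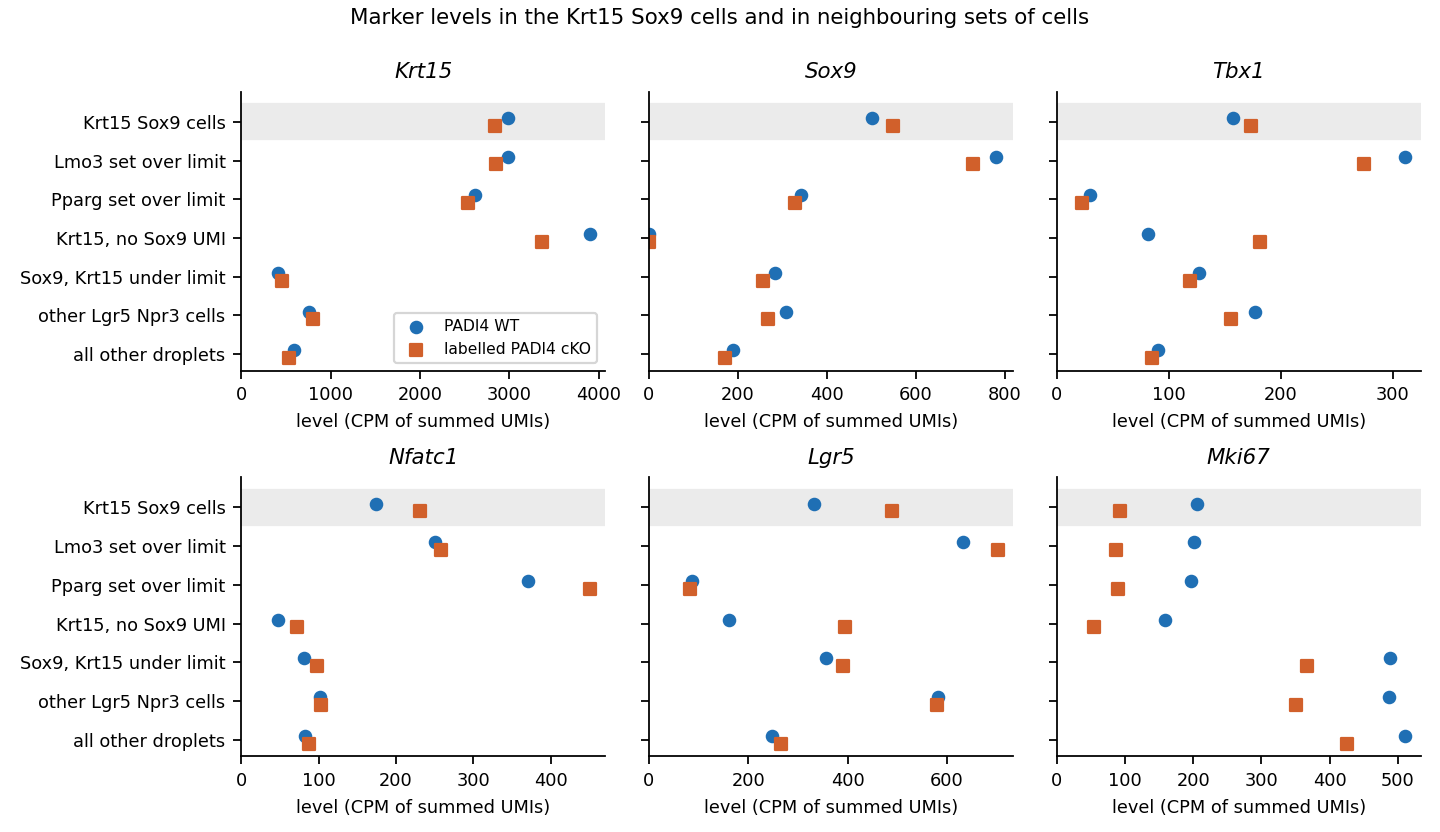
Level in CPM of summed UMIs (x axis, linear, from 0) of the rule markers Krt15 and Sox9, of Tbx1 and Nfatc1, of the stem cell receptor Lgr5, and of the proliferation gene Mki67 in the Krt15 Sox9 cells (shaded) and in 6 other sets of droplets; circles are PADI4 WT and squares the library labelled PADI4 cKO, each 1 library with no error bar. Tbx1 in the Krt15 Sox9 cells (157 and 174 CPM) lies below its level in the cells with the Lmo3 set over the limit (311 and 275 CPM), and Mki67 lies at 206 and 92.9 CPM against 511 and 425 CPM in all other droplets.

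Of 13542 genes with enough UMIs, 512 (3.78%) were at least 2-fold above the other droplets in both libraries and 526 (3.88%) at least 2-fold below, and the median gene had log2 ratios of -0.00542 and -0.00207. Krt19 led, a small type I keratin of simple and stem cell epithelia, with 29.1 and 23.4 CPM against 4.34 and 4.36 CPM, log2 ratios of 2.75 and 2.42. Next to Krt15 followed Spon1, which encodes a secreted matrix protein (48.4 and 31.6 against 10.2 and 4.41 CPM), and Ly6d, a surface antigen of keratinocytes (621 and 187 against 121 and 41.1 CPM). The order of these genes is that of the less extreme of the 2 libraries. The shares of 3.78% and 3.88% over all genes are the background for the list counts below.

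Several leading genes encode signals or adhesion proteins. Pthlh, the secreted parathyroid hormone-related protein that keratinocytes release, stood at 138 and 133 CPM against 32.3 and 29.4 CPM. Cdh13, a cadherin anchored in the membrane by a lipid, stood at 419 and 321 CPM against 110 and 83.9 CPM, and Penk, the precursor of the enkephalins, at 49.9 and 41.2 CPM against 10.9 and 11.4 CPM. Each of these lay apart from the other droplets by a log2 ratio of at least 1.86 in both libraries.

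The remaining leading genes were Nebl, Krtdap, Arhgap26, Gm47902, Vsnl1, Cyp4b1, Lypd6b, Dlg2, Fndc1, Capns2, Tagln, Stk39, and Tox, with log2 ratios from 1.79 to 2.31. Krtdap encodes a secreted protein of differentiating keratinocytes, and it was at 426 and 223 CPM against 94.3 and 54.3 CPM. Tagln, an actin-binding protein best known from smooth muscle, was at 342 and 326 CPM against 98.1 and 93.4 CPM. As the subclusters below show, a leading gene of the group is often a gene of a few of its cells.

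RefSeq promoter entries (GRCm38.p6) were found for 9 of the 20 leading genes, in 15 windows of 250 bases before the start site. The window of Krtdap, chr7:30787655-30787904 on the plus strand, and that of Capns2, chr8:92901145-92901394 on the plus strand, are shown as examples of leading genes whose window holds a match to a motif of a factor family measured here. Capitals mark TCAAAG, the reverse of the TCF/LEF core CTTTGA, in the first, and the NFAT core GGAAAA or its reverse TTTTCC in the second.
Krtdap: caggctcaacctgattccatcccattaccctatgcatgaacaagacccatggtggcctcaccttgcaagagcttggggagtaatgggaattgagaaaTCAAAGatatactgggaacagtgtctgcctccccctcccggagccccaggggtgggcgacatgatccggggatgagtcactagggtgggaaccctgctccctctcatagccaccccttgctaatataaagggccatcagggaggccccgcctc
Capns2: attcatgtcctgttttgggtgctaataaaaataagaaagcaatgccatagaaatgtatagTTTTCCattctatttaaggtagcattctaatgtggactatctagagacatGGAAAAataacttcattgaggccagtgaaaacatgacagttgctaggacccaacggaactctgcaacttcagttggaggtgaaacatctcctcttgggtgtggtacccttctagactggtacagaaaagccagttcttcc
Over both strands, the SOX core ACAATG or CATTGT was in 1 of the 15 windows, the TCF/LEF core in 4, and the NFAT core in 4, and the same letters were in 10.7%, 13.8%, and 20.4% of all 32851 windows of this length. A match describes the letters of a window and is not a binding site.

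The lowest genes belonged to the bulb and the shaft. Msx1, a homeobox factor of the matrix, was at 4.67 and 5.94 CPM in the Krt15 Sox9 cells against 98.4 and 116 CPM elsewhere, and its relative Msx2 had log2 ratios of -3.97 and -3.92. Krt28 of the inner root sheath was at 20.2 and 25.3 CPM against 411 and 415 CPM, and Krt35 of the hair cortex at 7.51 and 11.4 CPM against 205 and 184 CPM. Cldn10, Gm49425, Mt4, Dcn, Cdh6, and Shh, the hedgehog ligand of the matrix, completed the list, with log2 ratios from -4.64 to -3.52.

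**Figure D2:**
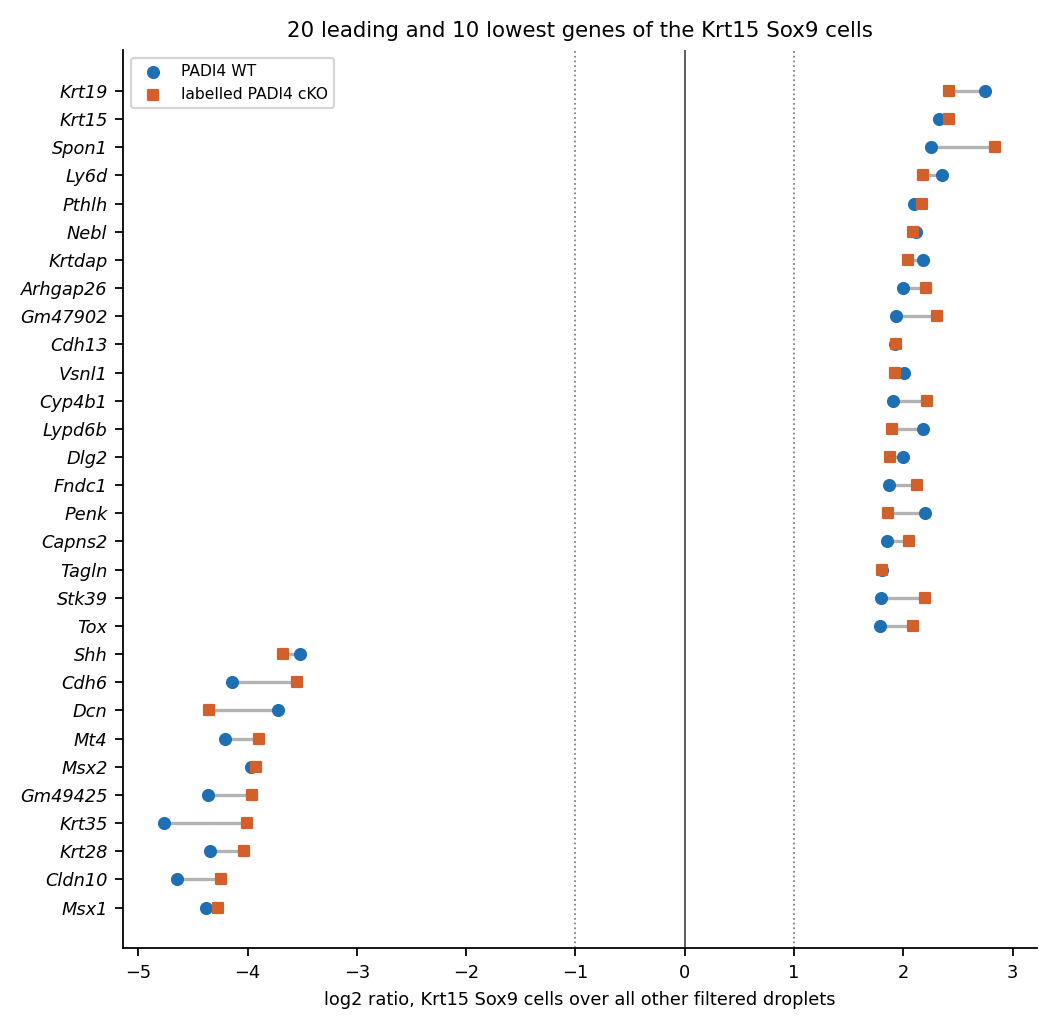
Log2 ratio of the level in the Krt15 Sox9 cells over all other filtered droplets (x axis) for the 20 leading and the 10 lowest genes; circles are PADI4 WT, squares the library labelled PADI4 cKO, gray lines join the 2 libraries, and dotted lines mark 2-fold. The leading genes lie between 1.79 and 2.84 and the lowest between -4.76 and -3.52 in both libraries; Krt15 was used to select the cells.

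Keratins of basal cells were high in the group against all other droplets. Cells with the Lmo3 set over the limit had similar levels, with Krt14 at 2127 and 1629, Krt17 at 3057 and 2954, and Krt5 at 2805 and 2683 CPM. Of 11 sheath, basal, and simple keratins with enough UMIs, 5 were at least 2-fold above the other droplets in both libraries and 1, Krt75 of the companion layer, below. Krt14 (2464 and 1557 against 1078 and 748 CPM) and Krt17 (3252 and 3322 against 1609 and 1524 CPM) are keratins of the basal layer and of the sheath, and Krt7, Krt8, and Krt19 are keratins of simple epithelia. Krt5, the partner of Krt14, missed the limit narrowly, with log2 ratios of 1.06 and 1.00, and Krt6b had 0 UMIs in both libraries.

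Of 14 transcription factors of the sheath and its stem cells, 2 were above 2-fold, the forkhead factor Foxc1 (44.6 and 53.1 CPM, log2 ratios of 1.39 and 1.69) and the homeobox factor Barx2 (747 and 793 against 327 and 280 CPM). Id2, an inhibitor of helix-loop-helix factors, was below, at 27.2 and 21.8 against 66.0 and 69.0 CPM. Tcf7l1, a repressor of Wnt targets in stem cells, had log2 ratios of 0.65 and 1.01, and Runx1 0.85 and 1.04. Lhx2, a bulge factor, was not higher in the group, at 298 and 401 CPM against 342 and 411 CPM.

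Of 13 surface and secreted genes of the bulge and upper sheath, 6 were above 2-fold and 1 below. Sfrp1, a secreted Wnt inhibitor, was at 149 and 144 against 44.9 and 31.2 CPM, Postn, a matrix protein, at 142 and 155 against 44.4 and 36.0 CPM, and Fst, the activin antagonist follistatin, at 466 and 268 against 127 and 81.6 CPM. Lrig1, a brake on growth factor receptors, Col17a1, a hemidesmosome collagen, and Dkk3 were the others above, and the Wnt inhibitor Wif1 was below, at 1.74 and 1.98 against 16.9 and 12.9 CPM. Cd34, a marker of the adult bulge, had 29 and 4 UMIs. The stem cell receptors Lgr5 (332 and 490 against 248 and 266 CPM) and Lgr6 (298 and 372 against 179 and 203 CPM) did not reach 2-fold.

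Genes of the anchorage to the basement membrane were mostly between the limits. Of 25 such genes, 4 were above 2-fold, Col17a1, Lamb3, Egfl6, and Col7a1, which forms anchoring fibrils (66.3 and 68.4 against 28.8 and 26.6 CPM). Frem1 was below, at 1.47 and 4.17 against 11.3 and 15.6 CPM. The median gene of the list had log2 ratios of 0.55 and 0.40, with Itga6 at 0.96 and 0.82 and Itgb4, its partner in the hemidesmosome, at 0.87 and 0.98. Of 13 genes of desmosomes and adherens junctions none was above 2-fold, and Dsg1a and Pkp2 were below, against 3.78% and 3.88% of all genes.

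Signaling genes gave a divided picture, in short lists whose counts stand beside 3.78% above and 3.88% below over all genes. In the hedgehog pathway, the coreceptors Gas1 (200 and 194 against 75.4 and 60.6 CPM) and Cdon (62.9 and 40.3 against 23.3 and 16.4 CPM) were above 2-fold and the ligand Shh was below (5.04 and 5.21 against 58.2 and 67.1 CPM), of 12 genes with enough UMIs. The receptor and target Ptch1 was close to its level elsewhere, at 415 and 505 against 463 and 537 CPM. Boc, another coreceptor, had log2 ratios of 0.85 and 1.27.

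Of 13 Wnt ligands and secreted inhibitors, 3 were above 2-fold, the ligand Wnt7b (42.8 and 31.3 against 12.3 and 9.55 CPM) and the inhibitors Sfrp1 and Dkk3. Wnt5a, Wnt10b, Wnt11, and Wif1 were below. Of 12 genes of the Wnt response and Tcf/Lef factors 0 were above and 5 below, Lef1, Tcf7, Nkd1, Notum, and Sp5. Lef1, the effector of Wnt signals in the matrix and precortex, was at 58.6 and 44.4 against 469 and 480 CPM, and Axin2, a general target, at 23.4 and 19.9 against 41.7 and 42.5 CPM.

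Of 15 genes of the BMP pathway, 2 were above 2-fold, the antagonist Fst and the receptor Bmpr1b (109 and 53.4 against 32.7 and 15.8 CPM). The ligands Bmp2 and Bmp4, the pseudoreceptor Bambi, the inhibitory Smad6 and Smad7, and Id2 were below, with Bmp4 at 8.43 and 6.05 against 52.2 and 60.6 CPM. In 4 further pathways a single gene passed the limit in each: Heyl of 9 Notch genes was below, and Tgfa of 8 genes of the EGF family, Fgf5 of 10 of the FGF family, and Ccn2 of 12 of the TGF-beta pathway were above. Over all genes 3.78% were above and 3.88% below, so a single gene in so short a list says little about its pathway. Fgf5, which ends the growth phase of the hair in the adult sheath, had 125 and 71 UMIs in the group.

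The Krt15 Sox9 cells were less proliferative than the other droplets. With every cell thinned to 2000 UMIs, 26.1% (23.2% to 29.1%) and 17.3% (14.7% to 20.2%) had a UMI of Mki67, Top2a, or Cdk1, against 53.7% and 50.5% of the others. Of 52 G2 and M phase genes 0 were above 2-fold and 8 below, with medians of -0.79 and -1.37, and of 42 S phase genes 0 were above and 3 below, with medians of -0.55 and -0.77. Over all genes 3.88% were below. Mki67 itself was at 206 and 92.9 against 511 and 425 CPM. The low share of cells with a UMI of Mki67, Top2a, or Cdk1 was not particular to the group. It was 20.9% and 17.3% in cells with the Lmo3 set over the limit and 21.4% and 17.6% with the Pparg set over the limit. Krt15 cells with no Sox9 UMI had 22.2% and 20.6%. Sox9 cells with Krt15 under the limit had 57.7% and 47.7%, and other Lgr5 Npr3 cells 54.6% and 48.5%.

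Of 19 immediate early and dissociation response genes, 5 were above 2-fold and 0 below. Nr4a1, a nuclear receptor induced within minutes of a stimulus, was at 38.7 and 38.7 against 11.7 and 11.2 CPM, and Ier3, Dusp1, Egr2, and Zfp36 were the others. These genes also respond to enzymatic dissociation of tissue, whose part in the result was not tested. Of 79 cytosolic ribosomal protein genes 0 passed the limit in either direction, with medians of -0.000878 and 0.03.

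Markers of the lower follicle and of sebocytes were low, and those of the upper follicle and suprabasal layers were not. All 8 genes of the matrix and germinative layer were below 2-fold, at a summed 254 and 263 against 1849 and 2209 CPM, and so were 5 of 7 inner root sheath genes, 3 of 5 cortex and cuticle genes with enough UMIs, and 3 of 6 genes of the lower proximal cup. Of 8 sebocyte genes 5 were below, among them Pparg, which the rule limits, and Scd1 (7.42 and 8.13 against 21.4 and 18.4 CPM). The infundibulum and junctional zone list summed to 1191 and 964 against 512 and 498 CPM, with Lrig1 above 2-fold of 6 genes and 0 below, and medians of 0.99 and 0.01. The suprabasal list summed to 570 and 316 against 275 and 161 CPM. Of its 7 genes Krtdap alone was above, while Krt10 had 468 and 346 UMIs below the limit that the rule sets.

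Cells from outside the epithelium left few UMIs. Of 7 immune markers 6 were at 0 in each library, and the 4 Merkel cell markers were at 0 in both. Endothelial markers summed to 1.28 and 1.36 CPM and erythroid markers to 0 and 0.208 CPM. Fibroblast markers summed to 210 and 204 CPM, of which Postn held 142 and 155 and Dcn 55.3 and 37.5, while Col1a1 was at 1.28 and 1.36 CPM. Melanocyte markers summed to 77.8 and 129 against 119 and 121 CPM. Of 5 of them 4 were below 2-fold, such as Dct at 3.21 and 1.98 against 38.6 and 26.1 CPM, and Mitf, which held most of the sum at 72.2 and 126 CPM, was not.

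The rule separates the group from its nearest neighbors by a few genes, and the comparison with them shows what else differs. The cells that met the Krt15 and Sox9 limits but had at least 3 UMIs of Lmo3, Adamts19, and Pcdh20 numbered 556 and 635. Against them 84 of 10279 genes (0.817%) were 2-fold higher in the Krt15 Sox9 cells in both libraries and 65 (0.632%) lower.

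Higher in the Krt15 Sox9 cells than in these neighbors were Ly6d (621 and 187 against 54.1 and 27.1 CPM), Nebl, Cdh13, Krtdap, Fst, and Krt79, a keratin of the infundibulum (380 and 107 against 43.6 and 30.8 CPM). Lower, besides Adamts19, were Pdlim3, Nrcam, Dpyd, Calml3, and the basement membrane collagen Col4a4 (41.1 and 43.1 against 123 and 125 CPM). Sox9 (502 and 549 against 780 and 729 CPM), Lgr5 (332 and 490 against 632 and 702 CPM), and Lhx2 (298 and 401 against 472 and 531 CPM) were also at lower levels in the Krt15 Sox9 cells, short of 2-fold in both libraries. Postn (142 and 155 against 186 and 152 CPM) and Lrig1 (695 and 778 against 640 and 686 CPM) were near their levels in these neighbors.

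The cells with the Pparg set over the limit, 224 and 187, had 371 of 9490 genes (3.91%) lower than the Krt15 Sox9 cells and 120 (1.26%) higher. Tagln (342 and 326 against 14.3 and 7.57 CPM), Ckb, Foxe1, a forkhead factor of the follicle (74.0 and 70.9 against 4.78 and 6.06 CPM), Nkain3, the Wnt receptor Ror2, and Myl9 were higher. Besides the 3 genes of the limit, Gm12068, Zfpm2 (9.07 and 19.4 against 105 and 201 CPM), and the prolactin receptor Prlr were lower. Cdh13 was also lower in the Krt15 Sox9 cells here, at 419 and 321 against 875 and 909 CPM.

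Cells with Sox9 but with Krt15 under the limit, and within the other limits, numbered 1732 and 1350. Against these, 215 of 11403 genes (1.89%) were higher in the Krt15 Sox9 cells and 242 (2.12%) lower. Cdh13, Nkain3, Fst, Postn (142 and 155 against 43.0 and 42.5 CPM), and Ccdc3 were the highest besides Krt15, and the matrix and shaft genes Msx2, Krt35, Krt28, Cux1 (164 and 172 against 1035 and 1292 CPM), Gm16599, and Mt4 the lowest. Mki67 was at 206 and 92.9 against 488 and 367 CPM in these cells, all of which had Sox9.

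The counterpart, Krt15 cells with no Sox9 UMI, numbered 279 and 97. Cystatins and stefins were higher in these than in the Krt15 Sox9 cells, with Cstdc5 at 1337 and 111 against 143 and 18.7 CPM and Stfa1 at 371 and 117 against 52.3 and 4.80 CPM, as were Igfbp2, Stfa3, Tm4sf1, and Slc1a3. Higher in the Krt15 Sox9 cells were Ncald, Tafa1, Tll1, the repressor Prdm1 (61.1 and 100 against 5.97 and 16.4 CPM), and Sfrp1. Other cells with at least 3 UMIs of Lgr5 and Npr3 together, 2699 and 2824, had less Ly6d, Nebl, Cdh13, Pthlh, Krtdap, and Fst and more Msx2, Cux1, Gm16599, Adamts19, Krt28, and Elmod1 than the group.

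Clustering of the 1668 cells alone, with S and G2M scores regressed out, gave 10 subclusters of 363 to 25 cells. They are called by number and leading genes, which define them and are no separate finding. Tbx1 and Nfatc1 were high in different ones: Tbx1 was at 366, 338, and 260 CPM in subclusters 1, 5, and 6, and at 31.8 and 4.60 CPM in subclusters 2 and 4, while Nfatc1 was at 465 and 350 CPM in subclusters 7 and 2 and at 33.5 and 14.4 CPM in subclusters 5 and 6. Subcluster 1 had both, with Nfatc1 at 229 CPM.

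Subcluster 1 (363 cells) was led by Pdlim3, Col4a3, Rnf150, Col4a4, Dio2, and Npnt. Col4a3 and Col4a4 encode basement membrane collagen chains, and Npnt, or nephronectin, is the bulge ligand of an integrin on arrector pili cells (413 against 33.1 CPM in the other subclusters). Sox9 was highest here, at 1035 CPM, and Sfrp1, Lhx2, and Lgr5 were at 469, 579, and 643 CPM. Pdlim3 and Col4a4 were also higher in the neighbors that the limit on Lmo3, Adamts19, and Pcdh20 removed.

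The leading genes of subcluster 2 (318 cells) included Cpsf4l, Gjb6, Sema3a, Sh2d4a, and Abi3bp. Gjb6, which encodes a gap junction connexin, was at 72.1 against 21.4 CPM, and Lrig1 and Lgr6 were at 1023 and 609 CPM. Subcluster 7 (109 cells), led by Adamts18, Tafa1, Tmem108, Hs3st3b1, Bdnf, and Robo2, shared high Lrig1 and Lgr6, at 1242 and 681 CPM, and added high Postn, Tgfb2, and Sox9, at 457, 433, and 805 CPM. It also had the fewest cycling cells of the 7 larger subclusters, with a UMI of Mki67, Top2a, or Cdk1 in 10.1% (5.15% to 17.3%) of cells at 2000 UMIs.

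Subcluster 3 (235 cells) was led by Slc7a2, Krt28, Nrp2, Lef1, Fam13a, and Tnfrsf19. Its mean doublet score of 0.0783 was the highest of the 7 larger subclusters, and the part of mixed droplets in it was not tested. Lef1 was at 129 against 37.7 CPM, Edar, the ectodysplasin receptor, at 80.0 CPM, and Ptch1 at 740 CPM, the highest of all subclusters. Subcluster 4 (200 cells) was led by Stfa1, Stfa3, Cstdc5, Igfbp2, Cfap57, and Meis2, with Stfa3 at 852 against 11.5 CPM. It had the highest Krt14 (5200 CPM), Fst (1246 CPM), and Cdh13 (1336 CPM) and the lowest Tbx1, Lgr5 (27.2 CPM), and Lhx2 (17.6 CPM), so that Tbx1 does not mark all of the group.

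Subcluster 5 (198 cells) was led by Slc35f1, Hcar2, Apba1, Spon1, Krt8, and Irf1. It held most of the Spon1 signal of the group, at 215 against 16.8 CPM, and with subcluster 6 most of Krt19, at 51.5 and 147 CPM. Subcluster 6 (165 cells), led by Acta2, Tagln, Olfml2b, Unc13c, Ddit4l, and Pid1, had contractile genes at high levels, with Tagln at 2368 against 33.8 CPM and Acta2, smooth muscle actin, at 358 against 4.53 CPM. Its cells had Krt17 at 4367 CPM and Krt14 at 473 CPM, and were more often cycling, at 38.2% (30.7% to 46.1%).

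The 3 smallest subclusters held 80 cells in all. Subcluster 8 (29 cells) was led by the histone genes Hist1h2ae, Hist1h1b, Hist1h2ab, Hist1h2ap, and Hist1h1a with Neil3, and 93.1% of its cells had a cycling UMI. Subcluster 9 (26 cells) was led by Depp1, Alox12e, Sdr16c6, Klk7, Elovl4, and Pinlyp, genes of the skin barrier and of lipid metabolism among them, with Krt79 at 8313 CPM. The leading genes of subcluster 10 (25 cells) included Wfdc18, Krt6a, Rhov, Myof, and Atp6v0a4, with Krt17 at 10847 CPM. Mean doublet scores were 0.0877 in subcluster 9 and 0.0743 in subcluster 10. Histone genes such as Hist1h2ap, which shares 93.4% of its 31-base stretches with Hist1h2ao, are uncertain as single genes.

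**Figure D3:**
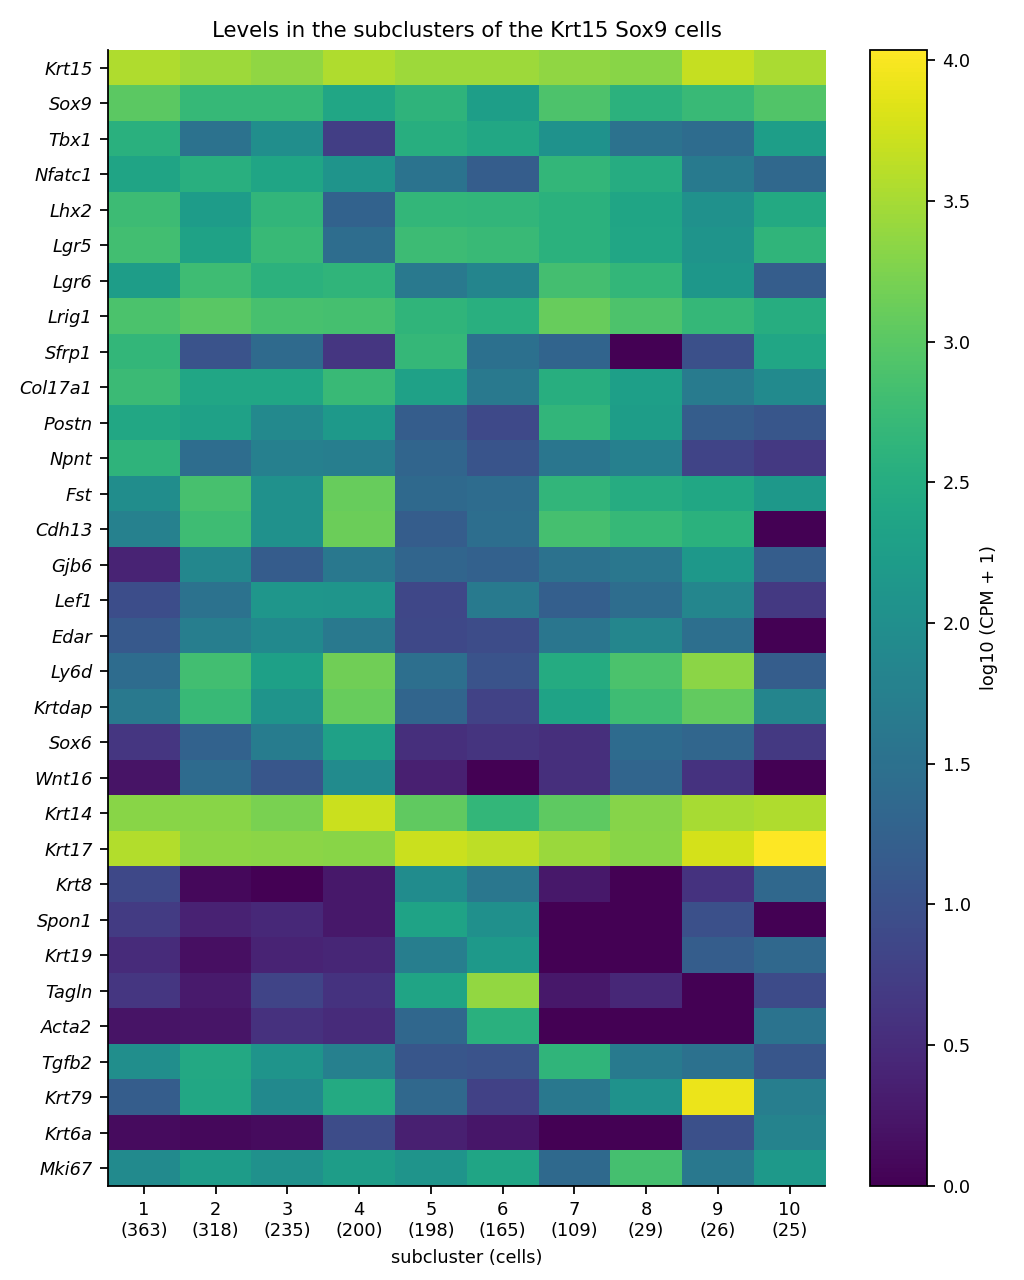
Level of 32 genes (y axis) in the 10 subclusters of the Krt15 Sox9 cells (x axis, number of cells in parentheses), as color on the scale log10 (CPM + 1) of summed UMIs over both libraries. Tbx1 ranges from 4.60 to 366 CPM and Nfatc1 from 14.4 to 465 CPM, and Tagln is at 2368 CPM in subcluster 6.

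The libraries differed in the makeup of the group. Subcluster 4 held 17.4% of the PADI4 WT cells and 5.68% of the cells of the other library, subcluster 3 9.06% and 19.9%, and subcluster 7 3.58% and 9.95%. Subclusters 1, 2, 5, and 6 held 21.5% and 22.1%, 18.6% and 19.6%, 12.2% and 11.5%, and 10.7% and 8.91%. The difference in subcluster 4 went with the sex-linked UMIs, since it held 3.98% (1.84% to 7.42%) of the Xist cells and 23.1% (19.7% to 26.7%) of the Y-linked cells of the PADI4 WT library and 5.67% (4.14% to 7.57%) of the Xist cells of the other.

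Among Xist cells, subcluster 3 held 12.8% (8.76% to 17.9%) and 19.7% (16.9% to 22.7%), subcluster 5 19.5% (14.5% to 25.2%) and 11.5% (9.30% to 14.0%), and subcluster 7 5.75% and 10.2%. Of the 7 larger subclusters, those whose intervals lay apart were subcluster 5 and subcluster 6, with 16.4% (11.8% to 21.9%) and 8.97% (7.03% to 11.2%). Genes that define a subcluster differ between the libraries, so these shares are a description.

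**Figure D4:**
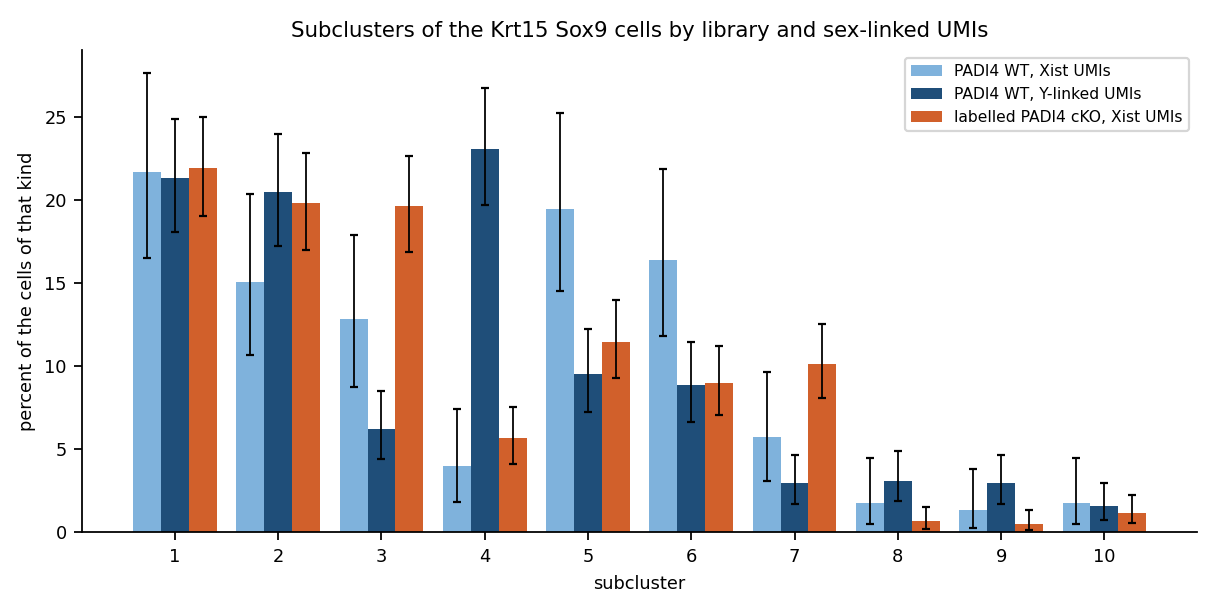
Share (y axis, percent, from 0) of the Krt15 Sox9 cells in each subcluster (x axis) for PADI4 WT cells with Xist UMIs (226 cells), PADI4 WT cells with Y-linked UMIs (577 cells), and PADI4 cKO cells with Xist UMIs (758 cells); error bars are exact 95% binomial intervals for counting error. Subcluster 4 takes 23.1% of the Y-linked cells against 3.98% and 5.67% of the Xist cells.

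Within the group, 269 of 10701 genes (2.51%) had a log2 ratio above 0.5 in PADI4 cKO over PADI4 WT, and 493 (4.61%) one below -0.5. Among Xist cells alone, with 226 and 758 cells, 527 of 9572 genes (5.51%) lay above and 420 (4.39%) below. Within the PADI4 WT library, 792 of 9096 genes (8.71%) were higher by more than 0.5 in the cells with Y-linked than in those with Xist UMIs and 471 (5.18%) lower. The comparisons rest on different numbers of cells, so these counts are not set against each other.

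Of the 493 genes below -0.5 between the libraries, 315 had enough UMIs in all 3 comparisons. Of these, 134 were also below -0.5 among Xist cells, 248 had the same sign there, and 155 were above 0.5 in the Y-linked over the Xist cells of the PADI4 WT library. Of the 269 genes above 0.5, 130 had enough UMIs, of which 68 were above 0.5 among Xist cells and 122 had the same sign there. Of the 130, 34 were below -0.5 in the Y-linked over the Xist cells of the PADI4 WT library. These comparisons share cells, so the counts describe the overlap and test nothing.

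Krt15 and Sox9, which the rule used in both libraries, had log2 ratios of -0.07 and 0.13. Of the markers it did not use, Nfatc1 had 0.41 (0.32 to 0.50) and, among Xist cells, 0.44 (0.30 to 0.59). Tbx1 had 0.14 over all cells and -0.36 (-0.50 to -0.23) among Xist cells, and Lgr5 0.56 and 0.16. Of the 14 transcription factors of the sheath 0 were above 0.5 and 2 below, Klf5 and Sox6, both of which were much higher in the Y-linked than in the Xist cells of the PADI4 WT library, at 117 against 42.4 CPM and at 70.4 against 21.5 CPM. Over all genes 2.51% were above 0.5 and 4.61% below -0.5.

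The lowest ratios included leading genes of subclusters 4 and 9. Stfa1 (52.3 and 4.80 CPM, -3.43), Cstdc5 (143 and 18.7 CPM, -2.94), and Stfa3 (168 and 43.0 CPM, -1.97) encode cystatin-like protease inhibitors and lead subcluster 4, and Sdr16c6 (18.2 and 2.81 CPM, -2.67) leads subcluster 9. In the library labelled PADI4 cKO few cells held their UMIs, with 50.3% of Cstdc5 in 1 cell. There 5 cells held 52.2% of Stfa1, 60.2% of Stfa3, and 74.1% of Sdr16c6. Gm8797, Clca3a2, Sox6, Calm4, the water channel Aqp3, and Krt79 completed the list. Among Xist cells their ratios were less extreme, with Stfa1 at -1.82, Cstdc5 at -1.24, Stfa3 at -0.14, Krt79 at -0.88, and Clca3a2 at 0.23. Stfa1 shares 39.0% of its 31-base stretches with BC100530 and Gm8797 93.0% with Gm1821, so reads of these genes may be split.

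Ly6d, Krt14, Fst, and Krtdap, all high in the group, likewise changed their ratios when Y-linked cells were left out. Ly6d was at 151 CPM in the Xist cells and 811 CPM in the Y-linked cells of the PADI4 WT library and at 186 CPM in the Xist cells of the other, Krt14 at 1805, 2732, and 1554 CPM, and Fst at 206, 566, and 268 CPM. Krt14 shares 17.6% of its 31-base stretches with Krt16. Over all cells the log2 ratios of Ly6d, Krt14, and Fst were -1.73, -0.66, and -0.80, and that of Krtdap -0.93, while among Xist cells the 4 genes had 0.30, -0.22, 0.38, and 0.35. The direction of Ly6d, Fst, and Krtdap therefore turned when Y-linked cells were left out. Within the 7 larger subclusters, with Y-linked cells included, Fst ranged from -2.73 to -0.29 outside subcluster 4 and had 0.42 in it. Krtdap ranged from -2.14 to -0.0088 outside subcluster 4 and had 0.093 in it. Ly6d ranged from -6.83 to -0.20 in subclusters 1 to 6, the lowest from 71 and 0 UMIs, and had 0.28 in subcluster 7.

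G2 and M phase genes were lower in the library labelled PADI4 cKO under both comparisons. Of 51 genes 37 lay below -0.5 and 0 above, with a median of -0.76, and among Xist cells 20 of 49 lay below and 0 above, with a median of -0.39. Over all genes 4.61% lay below and 2.51% above, and among Xist cells 4.39% and 5.51%. Mki67 had -1.15 and, among Xist cells, -0.87, and Hist1h1b, a linker histone of S phase, -1.69 and -1.55. Within subclusters 1 to 4 and 6, Mki67 had ratios from -1.55 to -0.72. It had -0.05 (-0.39 to 0.29) in subcluster 5 and 2.49 (0.45 to 8.41) in subcluster 7, the latter from 1 and 27 UMIs. Of 42 S phase genes 0 were above and 4 below over all cells, with a median of -0.02, and among Xist cells 0 were above and 8 below, with a median of -0.28. The same shares over all genes stand beside these counts. The share of cells with a UMI of Mki67, Top2a, or Cdk1 was 21.7% (16.5% to 27.6%) and 17.2% (14.5% to 20.0%) among Xist cells, with overlapping intervals, and 26.5% (23.0% to 30.3%) in the Y-linked cells.

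Genes higher in the library labelled PADI4 cKO included several that are hard to assign. Gm10260 (17.3 and 168 CPM, 3.27), Gm11361 (12.4 and 31.6 CPM, 1.35), and Hmga1b (5.40 and 26.4 CPM, 2.28) share 68.7% and 69.8% of their stretches with Rps18 and 92.7% with Hmga1. Gm10260 was at 1.08 CPM in the Xist cells and 23.8 CPM in the Y-linked cells of the PADI4 WT library, so its level differed also inside 1 library. Of the inner root sheath keratins, Krt25 (6.32 and 25.4 CPM) had 71.7% of its PADI4 cKO UMIs in 1 cell, and Krt73 had 93.1% in 5 cells.

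Other genes with high ratios follow. Adamts18, a matrix protease, was at 41.1 and 94.1 CPM (1.19, and 1.72 among Xist cells) and Tafa1 at 51.5 and 136 CPM (1.40 and 1.54). Both lead subcluster 7, which was larger in this library, and the part of that size in their ratios was not tested. Within subcluster 7 Adamts18 had 0.25 and Tafa1 0.41. In subclusters 1 to 6 Adamts18 ranged from -4.07 to 1.39 and Tafa1 from -5.74 to 2.22. Hhip, a hedgehog inhibitor, had 61 and 142 UMIs (1.40 and 0.76), and Fbn2, a fibrillin, 69 and 180 (1.56 and 1.37). Slit2 had 1.26 over all cells and -0.11 among Xist cells, and 5 cells held 65.4% and 75.8% of its UMIs. Gm47283 had 1.20 and 1.56. Of 12 genes of the TGF-beta pathway 1, the receptor Tgfbr2, was below -0.5 and 4 were above 0.5, among them the ligands Tgfb2 (0.59) and Tgfb3 (0.69) and the binding protein Ltbp2 (0.75). Among Xist cells these had 0.29 (0.12 to 0.46), 0.32 (0.10 to 0.56), and 1.29 (0.31 to 2.64), so that both ligands were under the limit there. With all cells used, 2.51% of all genes were above 0.5 and 4.61% below -0.5.

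Of 11 genes that the study named from these 2 libraries, 3 were above 0.5 and 0 below, Hmga1b, Rpl26, and Fosb, and among Xist cells 5 were above and 0 below. That list was chosen on these samples and is not independent evidence of its direction. Over all genes 2.51% were above and 4.61% below, and among Xist cells 5.51% and 4.39%. Rpl26, a protein of the large ribosomal subunit, was at 1515 and 2623 CPM (0.79), at 1845 and 2631 CPM among Xist cells (0.51), and at 1384 CPM in the Y-linked cells of the PADI4 WT library. It was the only gene of 79 cytosolic ribosomal protein genes past 0.5, with a median of 0.05 over the list, and its ratio lay between 0.63 and 0.81 in each of the 7 subclusters with at least 30 cells in both libraries. Rpl26 shares 23.4% of its 31-base stretches with Gm15772. Of the immediate early genes, Fosb (0.80) and Klf4 (0.55) were above 0.5 of 19, against 2.51% of all genes. Fos, at 313 and 441 CPM, had 0.49.

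**Figure D5:**
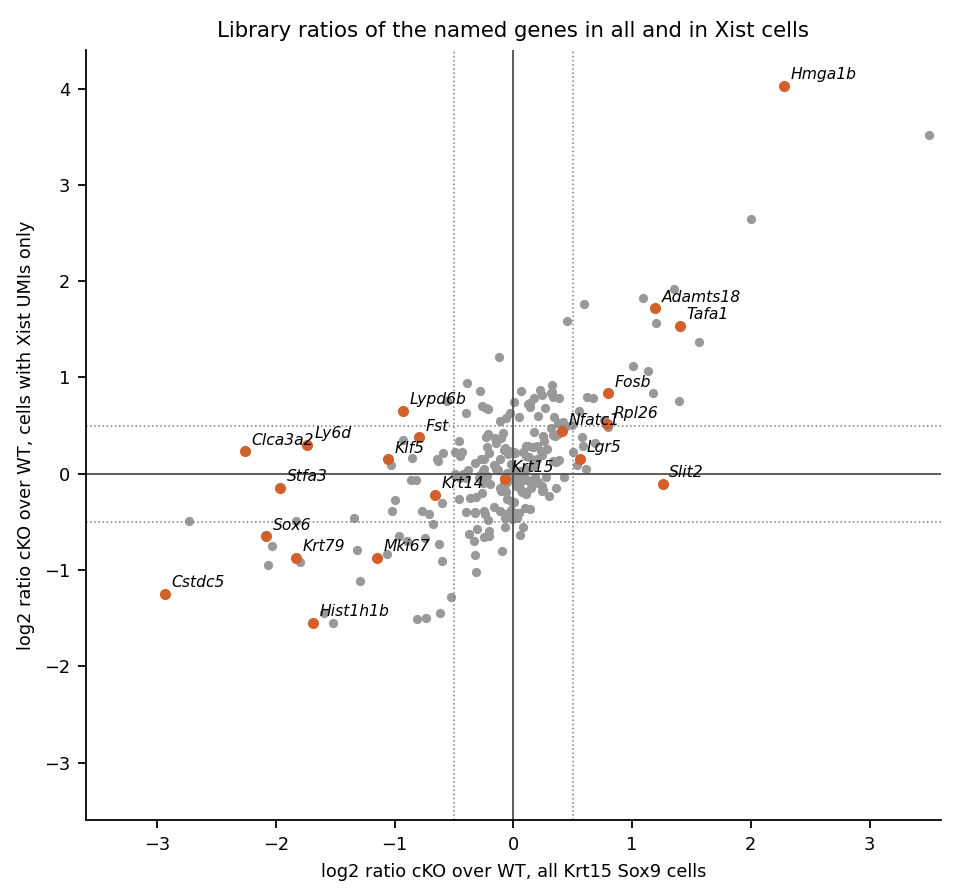
Log2 ratio of PADI4 cKO over PADI4 WT for 253 named genes with at least 100 UMIs in the Xist cells of both libraries together, over all Krt15 Sox9 cells (x axis) and over cells with Xist UMIs only (y axis); dotted lines mark 0.5 either way, selected genes are labeled in orange, and 1 gene, Gm10260 at 3.27 and 7.06, lies outside the frame. Ly6d, Fst, and Clca3a2 lie left of 0 on the x axis and above 0 on the y axis, whereas Mki67 and Hist1h1b are below -0.5 on both and Rpl26, Fosb, Tafa1, and Hmga1b above 0.5 on both.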

How the data were processed

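The Chromium 3′ v3.1 libraries were processed by the authors with Cell Ranger 7.1.0, named in the file headers, and the labels name the build mm10 and Scanpy. The values the authors deposited are UMI counts for every gene in every droplet, unfiltered and not normalized. Whether introns were counted is not given in the sources used here. CellBender and Harmony, which the authors applied later, were not run, and no cluster name of the study was taken over.

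Droplets with 2000 to 60000 UMIs, 1000 to 8000 genes, and at most 20% mitochondrial UMIs were kept, and the rule given in the report chose the members. Counts were summed per library and set of cells, 0.5 UMI was added to each sum, and log2 ratios of CPM were taken with exact conditional binomial intervals. Shares have exact Clopper-Pearson intervals, and a share of 0 allows 3 counts. PCR is collapsed by the UMIs, so intervals cover counting only. Genes against other droplets needed 100 UMIs in each library, group and others together, and genes between libraries 100 UMIs over both sums. A gene can thus pass through the side where it is high. Subclusters used 1000 variable genes, 20 components, 15 neighbors, and Leiden resolution 0.5 in Scanpy, with cell cycle scores regressed out. Doublets were scored with Scrublet and kept, and the 6% highest scores per library were left out in an alternative. Motifs and shared 31-base stretches were read from RefSeq promoters and the GRCm38 transcripts, whose annotation matched 32235 of 32285 genes. The log2 ratio and its interval were tested on simulated gene totals without spread between cells, and the other steps were not. Python 3.11.15, NumPy 2.4.6, SciPy 1.17.1, pandas 2.3.3, and Scanpy 1.11.5 were used.

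The members, the 33 lists of 406 genes, and the comparisons were chosen with earlier results of these data known. Named are up to 6 genes per list with the highest level in the group and those past a limit, the 20 leading and 10 lowest genes against the other droplets (at least 20 CPM in the group, or 50 CPM in the others), the 10 highest and 10 lowest ratios between libraries with at least 200 UMIs, the 6 leading genes per subcluster, and the 6 genes each way against each neighboring set. The log2 limit of 0.5 is the study's. Other limits of the rule, depth, normalization, doublets, and Xist cells were tried as alternatives. Some genes that this rule names are not reported here.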

Additional observations from a re-analysis of the deposited data

Results flagged for a closer look

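The ratio of the Krt15 Sox9 cells to the other droplets pointed in opposite directions in the 2 libraries for 6 named genes, each by at least 0.2 on the log2 scale and with a difference of at least 1. With 1 library per genotype the difference was not tested. Krt79, a keratin of the infundibulum, had log2 ratios of 1.57 in PADI4 WT and -0.23 in PADI4 cKO and was at 198 CPM in PADI4 WT Xist cells against 128 CPM in the other PADI4 WT droplets. Subcluster 9, with 22 and 4 cells, held 2895 of its UMIs. The water channel Aqp3 had 0.76 and -0.41. Sox6 had 0.31 and -1.17, and Igfbp2, an insulin-like growth factor binding protein, 0.55 and -0.50. Over both libraries together, both were high in subcluster 4, which holds 23.1% of the Y-linked and 3.98% of the Xist cells of PADI4 WT. Sox6 also differed between the libraries inside subcluster 4, with 470 and 7 UMIs. Its log2 ratio of PADI4 cKO over PADI4 WT there, with Y-linked cells included, was -4.07 (-5.49 to -3.11). The part of subcluster size in the ratios of Sox6 and Igfbp2 was not tested. In PADI4 WT Xist cells Sox6 was at 21.5 CPM and Igfbp2 at 16.5 CPM, both below the other PADI4 WT droplets at 46.3 and 22.6 CPM. Those other droplets, as for Krt79, include droplets with Y-linked UMIs, and a ratio within Xist droplets alone was not taken. Alox12e, a lipoxygenase of the epidermis, had 0.89 and -0.93. Krt1, which the rule limits together with Krt10, had -1.88 and 0.87.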

How the results depend on the processing

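No paired analysis was possible because each genotype is 1 library. The share of PADI4 WT droplets in the group, and that of PADI4 cKO, moved with the limits to 13.3% and 13.2% at 10 Krt15 UMIs per 10000, 7.54% and 7.38% at 20, 13.5% and 11.2% without the Sox9 limit, 8.52% and 8.92% at 2 Sox9 UMIs, 6.21% and 6.34% with Sox9 read in thinned cells, and 19.5% and 20.6% without the Lmo3 and Pparg limits. Thinned to 2000 UMIs, cells gave 180 genes 2-fold above and 311 below the other droplets and 147 above and 212 below 0.5 between libraries. These were 288, 324, 73, and 168 at a minimum of 500 UMIs, which tests fewer genes. At a minimum of 50 UMIs 421 genes were above 0.5 between libraries, and among Xist cells 527. Without subclusters 4, 6, 8, 9, and 10, chosen after seeing the data, 325 were below. A resolution of 0.3 gave 6 subclusters. The share of cells with a Mki67, Top2a, or Cdk1 UMI was 50.2% and 43.4% unthinned, and in PADI4 WT 22.7% at 20 Krt15 UMIs and 21.7% among Xist cells.

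Of 98 named genes past 0.5 between libraries, 70 kept their direction under all 14 alternatives and 36 of 1371 values reversed. Many more moved outside their counting interval. Among Xist cells 54 genes moved, 20 reversed, and 24 stayed, with subclusters 1 to 7 at equal weight 60, 5, and 33, and with 5 subclusters left out 58, 6, and 34. Among Xist cells alone the log2 ratios turned to 0.14 for Wnt10a, 0.65 for Lypd6b, 1.66 for Bmp2, 0.093 for Bmpr1b, 0.23 for Clca3a2, 0.42 for Cfap57, -0.11 for Slit2, 0.69 for Wnt16, 0.35 for Krtdap, 0.32 for Nrg1, 0.17 for Sh2d4a, 0.15 for Cdon, 0.75 for Dcn, 0.18 for Wfdc18, 0.38 for Fst, 0.22 for Tnfrsf19, 0.15 for Klf5, 0.30 for Ly6d, 1.09 for Wnt10b, and 0.72 for Krt1. At 20 Krt15 UMIs Unc13c turned to 0.30. Thinning turned Cdh6 to -1.51, Notch3 to 0.088, and Cst6 to 0.30, and the mean over cells turned Cdh6 to -0.21. Equal weights for subclusters 1 to 7, also chosen after seeing the data, turned Rhov to 0.028, Sdr16c6 to 0.11, Cfap57 to 0.028, Alox12e to 0.57, and Wfdc18 to 0.55. Leaving out the 5 subclusters turned Rhov to 0.41, Slit2 to -0.46, Alox12e to 0.28, Wfdc18 to 0.32, Krt25 to -0.22, and Notch3 to 0.053. The cause was not tested.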
